A study of Mus musculus with 6 samples.

Results

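The clustered replication-dependent histone genes were followed in cultured mouse skin cells that the labels call endothelial cells (ECs), kept in normal or high glucose. Members were all gene identifiers whose symbol begins with Hist1h, Hist2h, Hist3h or Hist4h, the older mouse names for these genes. The count table held 70 such identifiers among 55487, namely 6 for the linker histone H1, 20 for H2A, 19 for H2B, 12 for H3 and 13 for H4. Of the 70, 55 lay in the large Hist1 cluster on chromosome 13, 10 in the Hist2 cluster on chromosome 3, 3 in the Hist3 cluster on chromosome 11 and 1, Hist4h4, on chromosome 6, while the pseudogene Hist1h2al lay on chromosome 13 outside the cluster. A total of 56 members had enough counts to be tested, 13 had few counts and 1, Hist1h2aa, had no count in any sample. The 13 were Hist1h1t, Hist1h2ba, Hist1h2bm, Hist1h3a, Hist1h3g, Hist1h3h, Hist1h4f, Hist2h2aa2, Hist2h2ab, Hist2h2bb, Hist3h2ba, Hist3h2bb-ps and Hist4h4, of which only Hist2h2aa2 exceeded 20 counts in any sample.

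The series compared bulk RNA-sequencing of 3 samples in normal glucose (5 mmol/L) with 3 in high glucose (20 mmol/L) after 48 hours. The cells came from C57BL/6 mice aged 2 to 3 months, were enriched with beads against CD31 and, per the methods, were pooled from 4 to 6 mice and expanded in culture. No allele or further agent was given in the labels. The study counted its replicates per group of mice, but whether each sample was a pool of its own is not given in the sources used here, so the spread behind the p-values may be technical.

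Each nucleosome wraps DNA around a core of H2A, H2B, H3 and H4, and H1 binds the linker DNA between nucleosomes. Dividing cells must supply a new set of these proteins in S phase, and they do so from clustered genes that are transcribed together while DNA is copied. The mRNAs of these genes are unusual in that they lack introns and end in a conserved stem-loop instead of a poly(A) tail. The stem-loop is bound by the protein SLBP, and the RNA is quickly degraded when DNA synthesis stops. Some clustered genes can also give polyadenylated mRNAs from a site downstream of the stem-loop, as described for differentiated or non-dividing cells. The libraries were made from poly(A)-selected RNA per the labels and methods, so tail-less histone mRNA enters them poorly, and how much of it was captured was not measured.

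The stem-loop sequences show which 3′ ends the gene models of the members hold. The stem-loop consensus was found in the annotated transcripts of 41 of the 70 members and in 47 of 55450 genes in the transcript set, 0.0848%. Windows of at most 26 bases, 5′ to 3′, are printed with the stem-loop in capitals for the member of highest level, for the most abundant H2A gene, for the gene with the largest called fall and for a pair of H4 genes with differing stems.
Hist1h1c: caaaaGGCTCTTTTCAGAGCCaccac
Hist3h2a: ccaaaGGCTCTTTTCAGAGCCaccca
Hist1h3f: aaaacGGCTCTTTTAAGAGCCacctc
Hist1h4c: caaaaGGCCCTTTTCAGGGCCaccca
Hist1h4j: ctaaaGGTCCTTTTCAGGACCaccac
The stem differed by histone type. All 9 H4 members with a match had a stem like that of Hist1h4c (7 genes) or of Hist1h4j (2 genes), and neither form was found in a member of another type. The stem-loop of Hist1h1c and Hist3h2a was found in 26 members, 3 of H1, 10 of H2A, 8 of H2B and 5 of H3. The form of Hist1h3f, which differs from it in the loop, was found in 6 members, 1 of H1, 2 of H2B and 3 of H3. In 22 members the model ran on past the stem-loop by more than 50 bases, by 840 bases in Hist1h1c and by 1643 in Hist3h2a. A further 18 models ended at or near it, 15 held little more than the coding sequence, 12 had another 3′ end and 3 were pseudogenes.

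Promoters were examined because the members moved together and each type shares known elements. RefSeq promoter windows on GRCm38.p6, of 250 bases before and 50 after the start, matched 61 of the 70 members. The 250 bases before the start are shown for the most abundant H1 gene, for the most strongly lowered H2A gene and for the most abundant H4 gene, with 4 motifs in capitals on either strand: AAACACA (the H1 AC box), ATTTGCAT (the octamer), CCAAT and TATAAA (the TATA box).
Hist1h1c, chr13:23738557-23738806, plus strand: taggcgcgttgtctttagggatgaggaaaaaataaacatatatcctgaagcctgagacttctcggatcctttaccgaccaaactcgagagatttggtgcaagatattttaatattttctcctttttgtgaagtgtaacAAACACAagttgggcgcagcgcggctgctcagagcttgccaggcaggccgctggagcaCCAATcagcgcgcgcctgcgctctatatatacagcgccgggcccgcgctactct
Hist1h2ac, chr13:23683960-23684209, minus strand: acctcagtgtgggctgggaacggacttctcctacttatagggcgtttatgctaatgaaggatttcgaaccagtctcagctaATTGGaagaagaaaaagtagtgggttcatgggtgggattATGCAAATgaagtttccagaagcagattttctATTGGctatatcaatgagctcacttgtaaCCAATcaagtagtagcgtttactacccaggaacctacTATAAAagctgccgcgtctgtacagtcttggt
Hist1h4i, chr13:22041363-22041612, minus strand: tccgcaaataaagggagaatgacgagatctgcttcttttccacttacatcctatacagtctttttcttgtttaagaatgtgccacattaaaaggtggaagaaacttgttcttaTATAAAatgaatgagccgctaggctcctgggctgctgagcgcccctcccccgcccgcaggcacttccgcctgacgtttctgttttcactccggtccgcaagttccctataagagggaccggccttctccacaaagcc
No match overlapped another match in these 3 promoters. The Hist1h2ac promoter covers most of the 250 bases between Hist1h2ac and Hist1h2bc, which are read in opposite directions from it. The octamer was in 7 of 18 H2A windows and 6 of 16 H2B windows and in none of the 5 H1, 10 H3 or 12 H4 windows, against 1.74% of all 32851 promoter windows. The AC box was in 4 of 5 H1 windows, in 2 each of the H2A and H2B windows and in 7.18% of all windows. CCAAT was in all of the H1, H2A, H2B and H3 windows, in 3 of 12 H4 windows and in 37.4% of all windows. TATAAA was in 34 of the 61 windows and in 13.6% of all. These matches are descriptions of the letters present and no binding was measured.

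Total counts per sample ranged from 120192466 to 146881356. Of 19015 genes tested over the whole table, 3212 were higher and 2757 lower in high glucose under TMM scaling. Under scaling by library size alone these were 1819 and 4884, where the median gene shifted to −0.11 on the log2 scale from 0.01. The endothelial label was checked against 12 markers. Pecam1, which encodes CD31, was at 0.128 ± 0.0378 CPM (TMM-scaled CPM, the count relative to library size; SD, n = 3) in normal glucose, Cdh5 at 1.80 ± 0.0797 CPM, and Tie1, Cldn5 and Emcn had too few counts to be tested, while Flt1 was at 55.3 ± 2.06 CPM. The endothelial markers summed to 73.8 to 77.0 CPM in normal and 57.0 to 57.6 CPM in high glucose, mostly from Flt1. Of the 9 tested, 3 fell (Flt1, Cdh5 and Egfl7) and 2 rose, Tek by 0.66 on the log2 scale (edgeR adjusted p = 0.0022) and Erg from 2 to 8 counts per sample to 12 to 15 (edgeR adjusted p = 0.0453). The 10 fibroblast markers summed to 38613 to 41774 CPM in normal and 70770 to 75702 CPM in high glucose, and 8 of the 10 rose. These levels went against the endothelial label, since the fibroblast genes were abundant and the gene of the bead target was close to absent. The 4 smooth muscle and pericyte markers summed to 370 to 405 and 314 to 329 CPM, the 4 macrophage markers to 6.63 to 7.71 and 4.11 to 4.84 CPM, and the 4 keratinocyte markers to 2.07 to 2.88 and 2.21 to 2.45 CPM, with Krt1, Ptprc and Adgre1 at or near 0. Krt10 made up most of the keratinocyte sum, while Krt5 rose by 2.95 (edgeR adjusted p = 0.0015) from 2 counts in every normal sample to 12 to 23 counts, and Krt14, not tested, went from 0 to 2 counts to 9 to 35. The part of these marker differences in the histone results was not tested.

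Clustered histone genes fell in high glucose, with called members in each of the 5 types. Of the 56 tested members, 27 fell at an adjusted p under 0.05 (edgeR quasi-likelihood test, Benjamini-Hochberg), 48.2% against a background of 14.5% of all tested genes. None rose by edgeR, where 16.9% of all tested genes did, and none was higher at an unadjusted p under 0.05 or by DESeq2, which called 23 lower. A total of 54 of the 56 had a log2 fold change below 0, and the median was −0.53 against 0.01 over all tested genes. In 40 members every high glucose sample lay below every normal glucose sample, which held for 21.3% of all tested genes. In bulk samples, fewer cells of a type and less RNA per cell cannot be told apart.

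**Figure D1:**
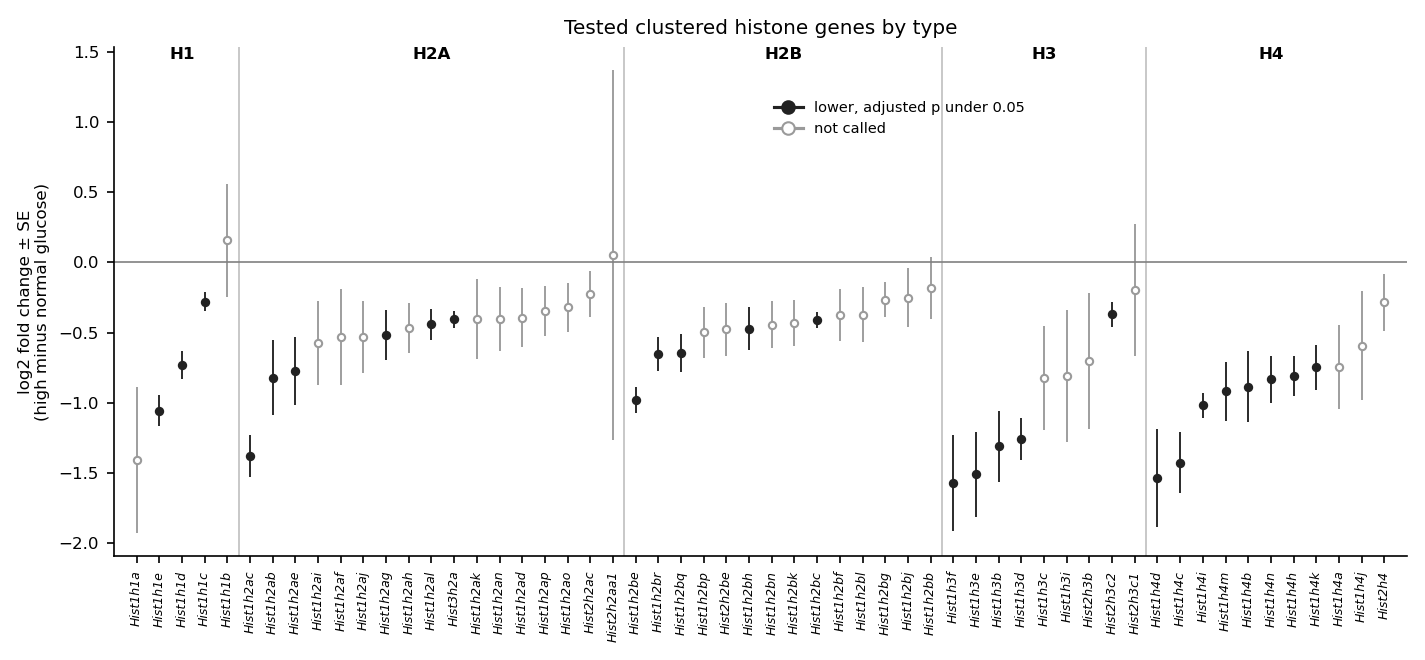
The log2 fold change (high minus normal glucose, vertical axis) with its SE for each of the 56 tested members, grouped by histone type along the horizontal axis. Filled points passed an adjusted p under 0.05. The points lie below 0 except Hist1h1b and Hist2h2aa1, whose error bars span 0.

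Together the 70 members took a very small part of the libraries. Their summed level was 342, 302 and 319 CPM in normal glucose replicates 1, 2 and 3 and 249, 258 and 237 CPM in the high glucose replicates. The groups did not overlap, and the mean was 22.7% lower in high glucose (321 ± 19.9 to 248 ± 10.5 CPM, SD, n = 3). Hist1h1c, Hist1h2bc and Hist3h2a made up 77.1% of all member counts. Without these 3, the other 67 members summed to 80.4, 77.9 and 74.4 CPM in normal and 49.1, 60.7 and 49.5 CPM in high glucose, a mean 31.5% lower.

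**Figure D2:**
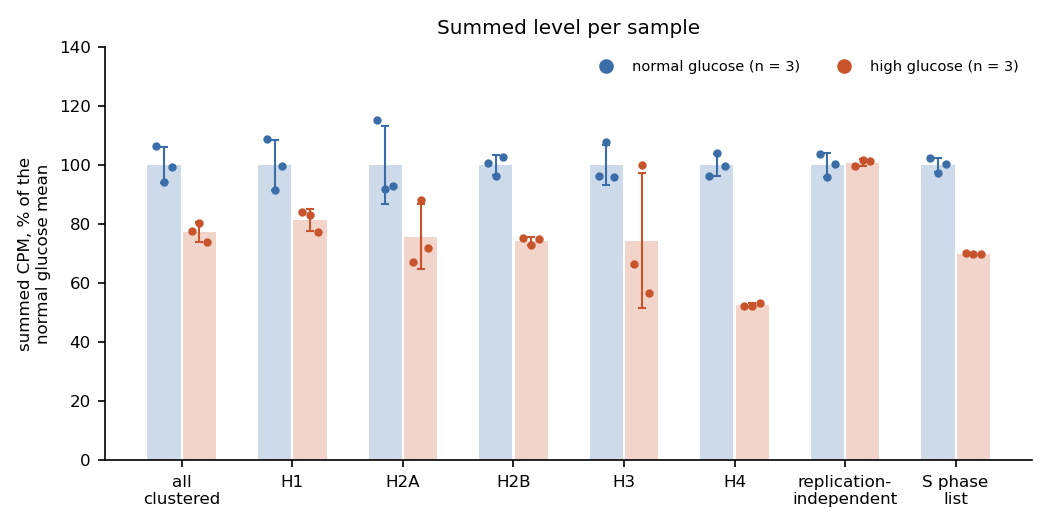
Summed CPM per sample as a percentage of the normal glucose mean (vertical axis) for all members, each histone type, the replication-independent histones and the S phase list. Bars are means, error bars the SD of 3 samples and points single samples. The high glucose samples lie below the normal ones for all members, H1, H2A, H2B, H4 and the S phase list, and overlap them for H3 and for the replication-independent histones.

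The H1 genes encode the linker histones that compact the chromatin fibre. Hist1h1c (H1.2; chr13:23738808-23740367, plus strand, 1 exon) was at 179, 150 and 163 CPM in normal glucose and 140, 138 and 128 CPM in high glucose. All 3 high glucose samples were below the lowest normal sample, but by a small margin. Hist1h1c fell by 0.28 on the log2 scale (SE 0.0696, adjusted p = 0.0120 by edgeR), and without high glucose replicate 3 its adjusted p was 0.0518.

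Hist1h1e (H1.4; chr13:23620629-23622558, minus strand) was at 2.63, 2.49 and 2.91 CPM in normal and 1.26, 1.37 and 1.23 CPM in high glucose. Every normal sample was above every high glucose sample by a wide margin. It fell by 1.06 on the log2 scale (SE 0.112, edgeR adjusted p = 5.8e-05). The exons of Hist1h1e share 496 bases on the same strand with Hist1h2be, and reads of that stretch cannot be told apart between the pair. Hist1h1d (H1.3; chr13:23553262-23560686, plus strand) was at 2.91, 2.93 and 3.00 CPM in normal and 1.74, 1.94 and 1.65 CPM in high glucose, again without overlap. It fell by 0.73 (SE 0.103, edgeR adjusted p = 4.0e-04).

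For every 100 counts of Hist1h1c there were 1.64 ± 0.159 counts of Hist1h1e in normal and 0.953 ± 0.0452 in high glucose (SD, n = 3). The 3 normal samples were all above the 3 high glucose samples, and the two-sided exact permutation p was 0.1, the smallest that 3 against 3 allow, over 4 such ratios chosen after the values were seen (adjusted p = 0.1). Hist1h1a (H1.1) had a log2 fold change of −1.41 (SE 0.521, edgeR adjusted p = 0.0646) on a mean of 18.3 counts, and without normal replicate 3 its adjusted p was 0.0203. Hist1h1b (H1.5) had the only H1 value above 0, 0.16 (SE 0.403), at 0.103 to 0.282 CPM in every sample, and without high glucose replicate 3 it was −0.48. Hist1h1t, the testis H1, held 0 to 8 counts per sample and was not tested.

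**Figure D3:**
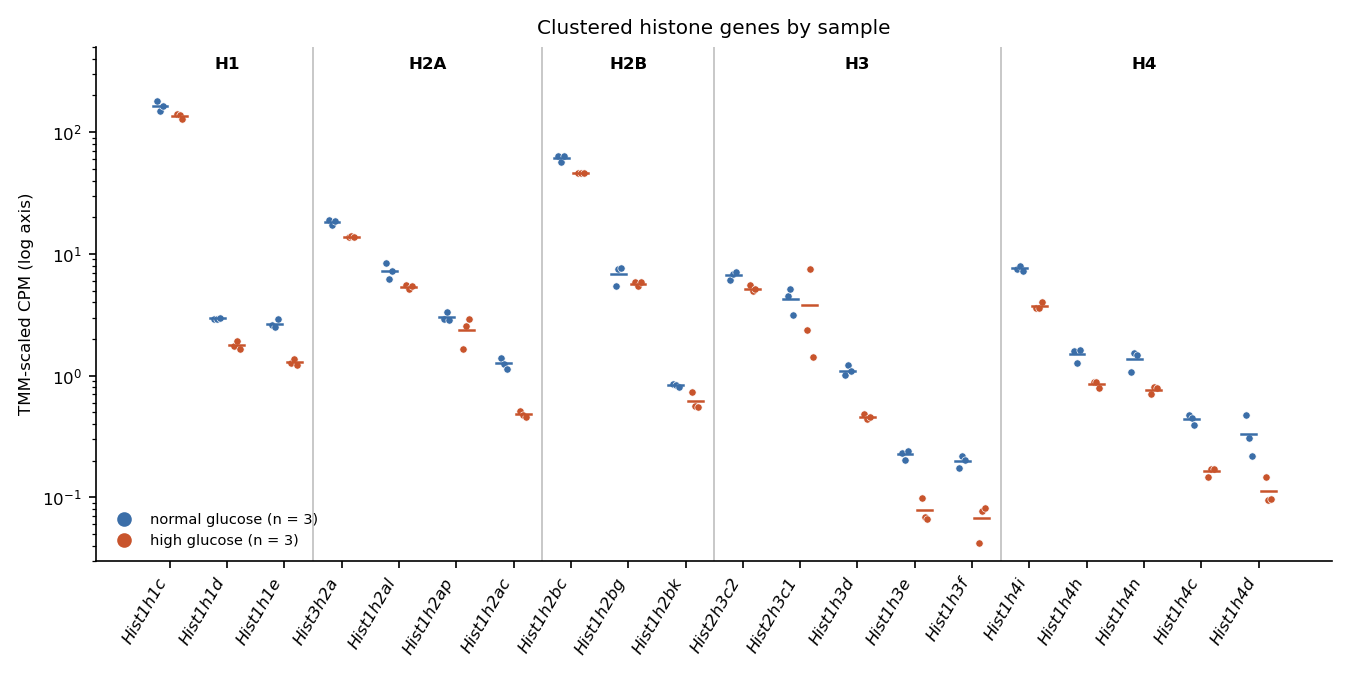
TMM-scaled CPM (log axis) in each of the 6 samples for the 20 tested members chosen by the naming rule, by histone type. Points are samples and lines are group means of 3. Hist1h1c and Hist1h2bc stand far above the rest, and the groups overlap in Hist1h2ap, Hist1h2bg and Hist2h3c1.

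H2A pairs with H2B on the face of the nucleosome. Of 17 tested H2A members 6 fell, 35.3% against 14.5% of all tested genes, with a median log2 fold change of −0.44. Hist3h2a, the only tested gene of the small Hist3 cluster (chr11:58954685-58956830, plus strand), was at 19.1, 17.3 and 18.5 CPM in normal and 13.8, 13.9 and 13.7 CPM in high glucose. The 3 high glucose samples were nearly equal and lay below all normal samples. It fell by 0.41 (SE 0.0601, edgeR adjusted p = 5.6e-04). Trim17 shares 708 exonic bases with it on the same strand and was at 0.875 to 1.15 CPM in normal and 0.775 to 1.05 CPM in high glucose.

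Hist1h2ac (chr13:23681467-23683948, minus strand) was at 1.40, 1.25 and 1.13 CPM in normal and 0.515, 0.473 and 0.460 CPM in high glucose. The lowest normal sample was more than double the highest high glucose one. It fell by 1.38 (SE 0.148, edgeR adjusted p = 6.0e-05). The pseudogene Hist1h2al, the highest H2A member per length at 18.7 CPM per kb, fell by 0.44 (SE 0.110, edgeR adjusted p = 0.0123). Of its 75-base stretches, 43.4% also occur in Hist2h2aa1, from whose counts no direction was read. Reads of those stretches cannot be told apart between the pair, so neither the level nor the fall is its own alone. Hist1h2ap was at 2.92, 3.30 and 2.84 CPM in normal and 1.66, 2.55 and 2.92 CPM in high glucose, where replicate 3 overlapped the normal samples, and it did not pass the test (log2 fold change −0.35, SE 0.179). The testis gene Hist1h2aa had 0 counts in every sample, where the floor of 3 counts amounts to 0.0211 to 0.0258 CPM per sample. Such floors cover counting error only. The other called H2A members were Hist1h2ab, which fell by 0.82, Hist1h2ae and Hist1h2ag, which fell by 0.52. The Hist1h2ab call was lost in every fit without 1 sample except that without normal replicate 1, and the Hist1h2ag call without normal replicate 2 or 3 or high glucose replicate 1 or 2.

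Of 14 tested H2B members 5 fell, 35.7% against 14.5% of all tested genes. Their median was −0.44, or −0.66 among those with at least 1 CPM in 3 samples. Hist1h2bc (chr13:23684199-23692908, plus strand, 2 exons) was the most abundant H2B gene, at 63.6, 57.1 and 63.1 CPM in normal and 46.2, 45.8 and 46.3 CPM in high glucose. The high glucose samples lay close together below all normal samples. It fell by 0.41 (SE 0.0562, edgeR adjusted p = 3.4e-04), or by 0.25 with GC and length offsets, where the call held. Hist1h2be fell by 0.98 (SE 0.0943, edgeR adjusted p = 2.9e-05), but its exons share 496 bases on the same strand with Hist1h1e, so the reads of that stretch cannot be told apart between the pair. The other called H2B members, Hist1h2br, Hist1h2bq and Hist1h2bh, fell by 0.65, 0.64 and 0.47, the last a call lost in every fit without 1 sample except that without normal replicate 1. Of the 75-base stretches of Hist1h2bq, 96.1% also occur in Hist1h2br, so the falls of this pair are not separate observations.

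Hist1h2bg was at 5.45, 7.48 and 7.65 CPM in normal and 5.83, 5.43 and 5.86 CPM in high glucose, with normal replicate 1 among the high glucose samples. It did not pass the test (log2 fold change −0.27, SE 0.124, edgeR adjusted p = 0.132), and without that replicate its value was −0.42 with an adjusted p of 0.0024. Hist1h2bk had a log2 fold change of −0.43 (SE 0.161, edgeR adjusted p = 0.0675, or 0.0340 without high glucose replicate 1), at 0.812 to 0.855 CPM in normal and 0.556 to 0.733 CPM in high glucose. The testis gene Hist1h2ba held 2 to 6 counts per sample and was not tested.

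Many H2A and H2B genes lie head to head and share the DNA between their starts. The clusters held 15 divergent member pairs with 172 to 659 bases between them, and both genes were tested in 12. Both fell in 2 of the 12 pairs, 1 of the pair fell in 4 and neither did in 6. Over all tested genes, taken singly, 14.5% fell. Hist1h2ac and Hist1h2bc, whose shared stretch is mostly printed above, both fell, and Hist1h2ac stood at 2.06 ± 0.230 counts per 100 counts of Hist1h2bc in normal and 1.05 ± 0.0622 in high glucose (SD, n = 3, two-sided exact permutation p = 0.1, the smallest possible). Hist1h2ae fell by 0.77 (SE 0.241, edgeR adjusted p = 0.0341) while its partner Hist1h2bg did not pass. The Hist1h2ae call was lost without normal replicate 3 or high glucose replicate 1 or 2.

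H3 carries the tail that holds many histone marks, and the clustered genes encode H3.1 and H3.2. Of 9 tested H3 members 5 fell, 55.6% against 14.5% of all tested genes, with a median of −0.82. The H3 median moved to −1.26 without normal replicate 1 and to −0.39 among members with at least 1 CPM in 3 samples. Why it moved was not tested. Hist2h3c2 (chr3:96238108-96239127, minus strand) was at 6.15, 6.83 and 7.10 CPM in normal and 5.50, 4.94 and 5.10 CPM in high glucose without overlap. It fell by 0.37 (SE 0.0888, edgeR adjusted p = 0.0099), a call lost with GC and length offsets plus the replicate block (−0.29, adjusted p = 0.0697). Of the 75-base stretches of Hist2h3c2, 62.6% also occur in Hist2h3c1 and in Gm20634, whose counts were unsteady within groups. Reads of those stretches cannot be told apart between these genes. Hist1h3d (chr13:23575763-23577011, plus strand) was at 1.01, 1.21 and 1.09 CPM in normal and 0.479, 0.439 and 0.460 CPM in high glucose. Its normal samples were all more than double its high glucose samples, and it fell by 1.26 (SE 0.149, edgeR adjusted p = 1.2e-04). For every 100 counts of Hist1h1c there were 0.679 ± 0.124 of Hist1h3d in normal and 0.340 ± 0.0210 in high glucose (SD, n = 3, two-sided exact permutation p = 0.1, the smallest possible). Hist1h3b also fell, by 1.31 (SE 0.253, edgeR adjusted p = 0.0030).

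The largest called falls of any member were in low H3 and H4 genes and in Hist1h2ac. Hist1h3f had 0.176, 0.219 and 0.203 CPM in normal and 0.0423, 0.0774 and 0.0816 CPM in high glucose, a fall of 1.57 (SE 0.345, edgeR adjusted p = 0.0061). Hist1h3e had 0.232, 0.204 and 0.242 CPM in normal and 0.0987, 0.0688 and 0.0668 CPM in high glucose, a fall of 1.51 (SE 0.304, edgeR adjusted p = 0.0038). The groups did not overlap in either gene, and both rest on few counts. Hist1h3f held 22 to 31 counts per sample in normal and 6 to 11 in high glucose, and Hist1h3e 29 to 31 and 8 to 14.

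H4 is the most conserved core histone and its clustered genes encode 1 protein. Of 11 tested H4 members 8 fell, 72.7% against 14.5% of all tested genes, with a median of −0.83, and all 11 were below 0. The 13 H4 members summed to 13.9, 15.0 and 14.4 CPM in normal and 7.53, 7.54 and 7.69 CPM in high glucose. The groups were far apart and each was tight, and the mean was 47.4% lower. The sums of H1, H2A and H2B were lower by 18.5%, 24.3% and 25.7%, also without overlap. Several sums rest largely on 1 gene. In normal glucose Hist1h1c averaged 164 of 170 CPM for H1, Hist1h2bc 61.3 of 82.4 for H2B and Hist1h4i 7.62 of 14.4 for H4. By member the H1 fall was larger than its sum shows. Of 5 tested H1 members 3 fell, 60% against 14.5% of all tested genes, with a median of −0.73, beside −0.44 for H2A and for H2B. The H3 sum was 13.11, 14.70 and 13.04 CPM in normal and 9.05, 13.6 and 7.69 CPM in high glucose, where replicate 2 overlapped the normal samples. The H3 mean was 25.7% lower, and it decreased by 39.2% without that replicate, and the differences between types were not tested.

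Hist1h4i (chr13:22040636-22041362, minus strand, 1 exon) had the highest level of H4 at 7.83 CPM per kb. It was at 7.58, 8.02 and 7.26 CPM in normal and 3.60, 3.62 and 4.06 CPM in high glucose, with no overlap and a wide gap. It fell by 1.02 (SE 0.0880, edgeR adjusted p = 1.4e-05). Against 100 counts of Hist1h1c, Hist1h4i stood at 4.68 ± 0.591 in normal and 2.79 ± 0.331 in high glucose (SD, n = 3, two-sided exact permutation p = 0.1, the smallest possible).

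Hist1h4h was at 1.61, 1.26 and 1.62 CPM in normal and 0.888, 0.886 and 0.786 CPM in high glucose and fell by 0.81 (SE 0.144, edgeR adjusted p = 0.0018). Hist1h4n was at 1.06, 1.54 and 1.48 CPM in normal and 0.705, 0.800 and 0.786 CPM in high glucose and fell by 0.83 (SE 0.165, edgeR adjusted p = 0.0034). In both genes the high glucose samples lay below every normal sample. Hist1h4c fell by 1.43 (SE 0.219, edgeR adjusted p = 7.1e-04) and Hist1h4d by 1.54 (SE 0.349, edgeR adjusted p = 0.0074), each with groups that did not overlap. Hist1h4c held 50 to 64 counts per sample in normal and 20 to 23 in high glucose, and Hist1h4d 28 to 59 and 11 to 21. Hist1h4m, Hist1h4b and Hist1h4k fell by 0.92, 0.89 and 0.75, and the Hist1h4b call was lost without normal replicate 3 or high glucose replicate 2 or 3. Of the 75-base stretches of Hist1h4m, 89.0% also occur in Hist1h4n, so the falls of this pair are not separate observations.

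Levels between genes were compared per length of exonic sequence. Hist1h1c stood at 95.9 CPM per kb over the 6 samples, Hist1h2bc at 46.4, Hist1h2al at 18.7, Hist1h2bg at 10.2, Hist1h4i at 7.83, Hist3h2a at 7.48 and Hist2h3c2 at 5.82. The median tested member stood at 0.877 CPM per kb and the lowest, Hist1h3f, at 0.106. Of the members with a mean of at least 100 counts per sample 18 of 23 fell, and of those below 9 of 33 fell. The medians of the groups were −0.52 and −0.53, and 14.5% of all tested genes fell.

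Calls also differed by the 3′ end of the gene model. Of 19 tested members whose model ran past the stem-loop 15 fell (78.9%, median −0.82), and of 14 ending at the stem-loop 6 fell (42.9%, median −0.41). Of 10 with little but coding sequence 1 fell (10%, median −0.45), and of 11 with another 3′ end 4 fell (36.4%, median −0.64). The share over all tested genes was 14.5%. The median member of these groups held 114, 102, 46.8 and 87.8 counts per sample, so depth moved with the class and its part was not tested. The classes also differed in their mix of histone types, and the part of type was not tested either.

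**Figure D4:**
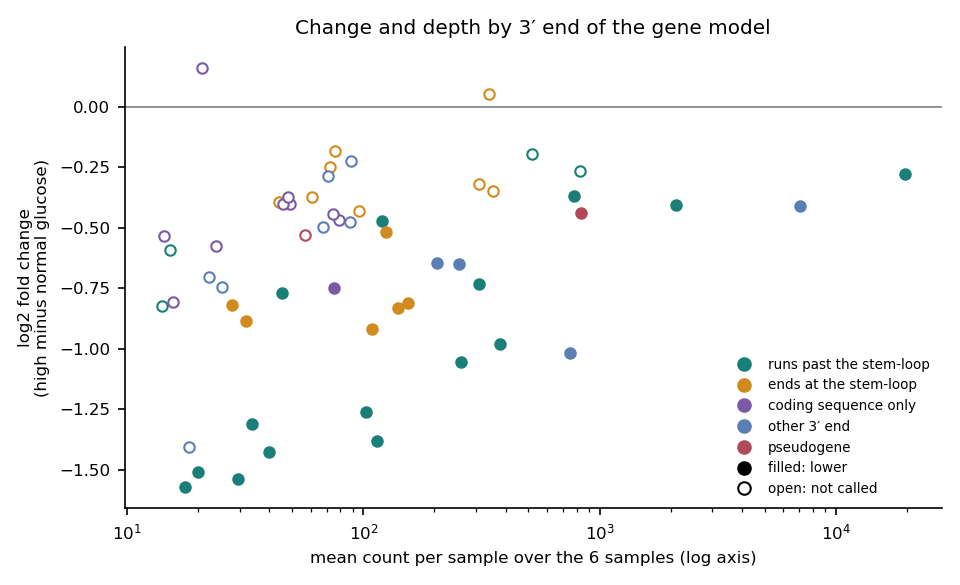
The log2 fold change (high minus normal glucose, vertical axis) against the mean count per sample (log axis) for the 56 tested members, coloured by the 3′ end of the gene model, with filled points for members called lower. The 5 largest called falls lie among models that run past the stem-loop, and the most abundant member, Hist1h1c, has a small change.

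Along chromosome 13 the members fell into separate stretches. In the stretch from Hist1h4h to Hist1h1a (chr13:23531050-23764406) 17 of 25 tested members fell, with a median of −0.82. In the stretch from Hist1h2bl to Hist1h2br (chr13:21715763-21837530) 5 of 17 fell, with a median of −0.53, and in the stretch from Hist1h2ah to Hist1h2bj (chr13:22035164-22043676) 2 of 5 fell, with a median of −0.47. In the Hist2 cluster on chromosome 3, 1 of 7 tested members fell, 14.3% and close to the 14.5% of all tested genes, with a median of −0.28.

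Near-identical sequence limits single members. In 28 of the 56 tested members at least 50% of all 75-base stretches, the read length in the methods, occurred in another gene. Of these 28, 11 fell (median −0.53), against 16 of 28 of the others (median −0.66) and 14.5% of all tested genes. The Hist2 locus shows the scale of this limit. Hist2h2aa1 had 867, 160 and 4 counts in normal and 107, 894 and 2 in high glucose, and Hist2h2aa2, with the same sequence, had 84, 0 and 0 and then 23, 0 and 0. These genes were named after their values were seen. Hist2h2aa1 ranged more than 100-fold within each group, so no direction was read from it.

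Hist2h3c1 had 567, 735 and 401 counts in normal and 337, 871 and 193 in high glucose. It lies wholly within Gm20634, which had 2594, 3706 and 4095 counts in normal and 3158, 1158 and 3180 in high glucose. High glucose replicate 2 was the highest sample for Hist2h2aa1 and Hist2h3c1 and the lowest for Gm20634. Hist2h3c1 had a log2 fold change of −0.20 (SE 0.471), which was −1.18 without high glucose replicate 2 and 0.18 without high glucose replicate 3. Together with Gm20632 and Gm20633, these 6 genes summed to 54.2, 56.9 and 58.6 CPM in normal and 46.2, 46.5 and 43.4 CPM in high glucose, so their sum was steady within each group, did not overlap and was 19.8% lower in high glucose. In normal glucose Gm20634 and Gm20632, which are not members, averaged 26.3 and 19.2 CPM, against 4.28 for Hist2h3c1 and 2.69 for Hist2h2aa1. The sum therefore rests mostly on genes outside the members, and no direction was read from it for the members.

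Other RNAs that lack a poly(A) tail were examined as a group. Of 18 identifiers such as Rn7sk, Rn7s1 and Rpph1, 5 had enough counts to be tested and none was called by edgeR or DESeq2, with 1 higher and none lower at an unadjusted p under 0.05. Their summed level was 15.5, 6.85 and 10.8 CPM in normal and 6.95, 10.0 and 8.79 CPM in high glucose, with overlapping groups. The mean was 22.2% lower in high glucose, beside 22.7% for all members, but this drop rested largely on normal replicate 1, at 15.5 CPM. All high glucose samples lay between the other normal replicates, at 6.85 and 10.8 CPM. Gene by gene, the 5 tested ran from −0.48 to 1.16 on the log2 scale, and their median was −0.04. Of 51 tested genes annotated as snRNA, snoRNA or scaRNA none was called by either tool or at an unadjusted p under 0.05. Of these 51, 37 had a log2 fold change below 0, with a median of −0.16. Their SEs ran from 0.17 to 0.66, so small changes could not be told from none. 

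Replication-independent histones are encoded by single genes outside the clusters, mostly with polyadenylated mRNAs, and many replace histones outside S phase. Of 11 tested, 4 fell, 36.4% against 14.5% of all tested genes, and 3 rose, where 16.9% of all did. Their median was 0.03, and their summed level was 1009 ± 39.8 CPM in normal and 1017 ± 11.4 CPM in high glucose (SD, n = 3). Cenpa, the centromeric H3, fell by 1.21 (SE 0.0698, edgeR adjusted p = 8.5e-07), H2afj by 0.70 (SE 0.102, edgeR adjusted p = 5.0e-04) and H2afx, the H2A variant of DNA damage marking, which has an annotated transcript with the stem-loop, by 0.41 (SE 0.0633, edgeR adjusted p = 7.6e-04). H2afz fell by 0.16 (SE 0.0485, edgeR adjusted p = 0.0277), a call lost when GC and length trends were removed (−0.02), and without normal replicate 3 or any 1 high glucose replicate. H2afy2, a macroH2A, rose by 0.40 (SE 0.0653, edgeR adjusted p = 0.0011). H3f3a, a gene for H3.3, rose by 0.17 (SE 0.0499, edgeR adjusted p = 0.0280), but its call was lost under library size scaling (0.05) and in every fit without 1 sample except that without normal replicate 1.

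The machinery list holds genes that make and mature clustered histone mRNA. Of 22 genes tested 5 fell, 22.7% against 14.5% of all tested genes, and 2 rose, where 16.9% of all did, with a median of −0.00054. The calls of Cstf2 and Snupn, lower, and Coil, higher, were each lost in 5 of the 6 fits without 1 sample. Ccne2 and Ccne1, the E-type cyclins that drive S phase entry with Cdk2, fell by 1.19 (SE 0.106, edgeR adjusted p = 1.7e-05) and 0.43 (SE 0.0559, edgeR adjusted p = 2.3e-04). Slbp, the stem-loop binding protein, was at 23.1 ± 1.31 CPM in normal and 19.1 ± 0.570 CPM in high glucose (SD, n = 3) and fell by 0.27 (SE 0.0597, edgeR adjusted p = 0.0065). Npat, the coactivator of the clusters, was at 24.1 ± 2.53 and 24.1 ± 0.503 CPM and did not pass the test. Fip1l1, a polyadenylation factor, rose by 0.22 (SE 0.0486, edgeR adjusted p = 0.0067), but its call was lost under library size scaling (0.10) and without high glucose replicate 3.

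Of 21 histone chaperones, which carry histones to DNA, 11 fell, 52.4% against 14.5% of all tested genes. A further 5 rose, where 16.9% of all did, and the median was −0.17. Asf1b fell by 1.03 (SE 0.0931, edgeR adjusted p = 1.9e-05), and Chaf1b and Chaf1a, subunits of the CAF-1 complex that loads H3 and H4 behind the replication fork, fell by 0.61 (SE 0.0879, edgeR adjusted p = 4.6e-04) and 0.41 (SE 0.0613, edgeR adjusted p = 5.7e-04), the last by 0.63 with GC and length offsets. Cabin1 and Ubn1, partners of the H3.3 chaperone HIRA, rose by 0.46 (SE 0.0648, edgeR adjusted p = 3.8e-04) and 0.30 (SE 0.0529, edgeR adjusted p = 0.0016). With GC and length offsets plus the replicate block Cabin1 was at 0.25 and Ubn1 at 0.14, where the Ubn1 call was lost (adjusted p = 0.0541). Hira rose by 0.23 (SE 0.0515, edgeR adjusted p = 0.0065), but its call was lost under library size scaling (0.12) and with those offsets plus the block (0.15). The calls of Asf1a and Atrx, higher, were also lost under library size scaling (0.13 and 0.19). That of Nasp, lower, was lost with GC and length offsets (−0.17). Without high glucose replicate 2 the calls of Asf1a, Atrx and Nasp were all lost.

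S phase genes moved with the clustered histones. Of 24 tested 22 fell by edgeR, 91.7% against 14.5% of all tested genes, and none rose, where 16.9% of all did. Their median was −0.57, and none was higher at an unadjusted p under 0.05 or by DESeq2. Rrm2, a ribonucleotide reductase subunit, fell by 1.21 (SE 0.0531, edgeR adjusted p = 1.4e-07), Ccna2 (cyclin A2) by 1.19 (SE 0.0571, edgeR adjusted p = 2.4e-07) and Pcna, the sliding clamp, by 0.26 (SE 0.0476, edgeR adjusted p = 0.0021). The Pcna call was lost with GC and length offsets plus the replicate block (−0.15, adjusted p = 0.0559). Tyms and E2f1 did not pass, though Tyms did without normal replicate 1 and E2f1 without normal replicate 2. The list summed to 526, 501 and 517 CPM in normal and 361, 359 and 360 CPM in high glucose, and its part in the histone result was not tested.

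**Figure D5:**
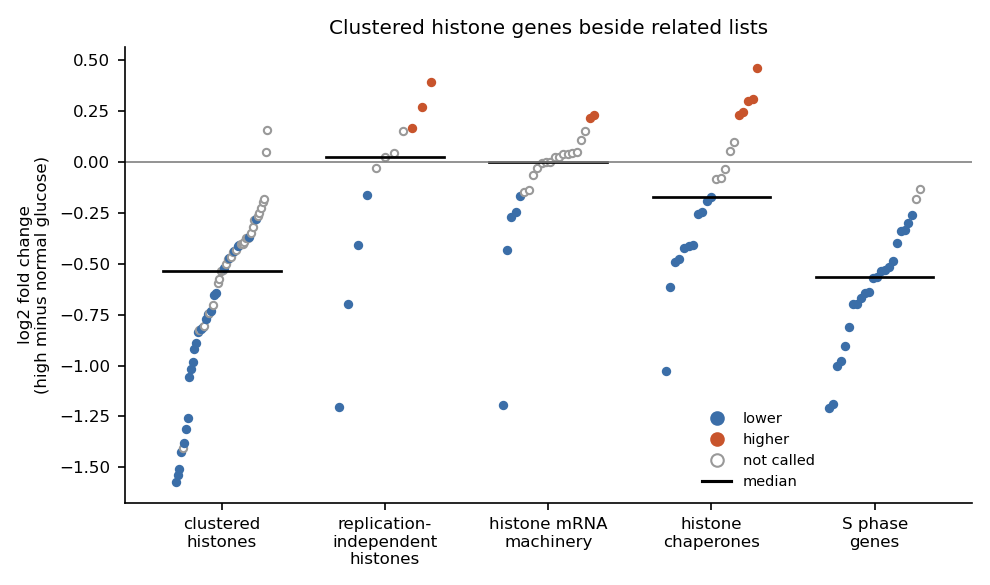
The log2 fold change (high minus normal glucose, vertical axis) of every tested gene in the clustered histones and in 4 related lists, with black lines at the medians. Clustered histones and S phase genes have medians of −0.53 and −0.57, while the replication-independent histones and the machinery have medians near 0.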

How the data were processed

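RNA of 6 cultures labelled mouse skin ECs was sequenced, after poly(A) selection per the labels and methods. The authors used Trimmomatic for trimming, HISAT2 for alignment to GRCm38 and StringTie for gene counts, which they deposited without normalization. Their versions, annotation release and strand setting are not given in the sources used here. Labels and methods name different RNA extractions and sequencing platforms, and the selection kit and the read length of 75 bases, on which the shared-sequence counts rest, come from the methods alone. Samples were grouped by their labels.

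The test was the quasi-likelihood test of edgeR 4.0.16 (R 4.3.3) after TMM scaling and filterByExpr with a minimum of 10 and a total of 15, at a Benjamini-Hochberg threshold of 0.05, with SEs taken from the test statistic. Total counts ranged from 120192466 to 146881356. DESeq2 1.42.0 and other scalings, filters and offsets were alternatives. The fit was tested on simulated data. CPM used TMM-scaled library sizes. Gene models came from GENCODE M21, and promoters and symbol synonyms from RefSeq on GRCm38.p6.

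Members and lists were chosen with earlier results of these data known. Named genes were the 3 highest tested members of each type by CPM per kb, the 5 largest called falls and rises, testis members and list genes. Named beyond these, after values were seen, are the remaining called members, members not tested, Hist1h1a, Hist1h1b, Hist2h2aa1 and Hist1h4j. Symk in the machinery list was read as Sympk.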

Additional observations from a re-analysis of the deposited data

How the results depend on the processing

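Among the 56 tested members, the number lower stayed within 1.5 times of 27 and the number higher at 0 in every alternative fit, except that 16 were lower among the 21 members with at least 1 CPM in 3 samples. Counting, after seeing the data, only the 28 tested members with under 50% of 75-base stretches in another gene also gave 16 lower, by construction from fewer genes. Of the 27 members, 21 were also called in each of the 6 fits without 1 sample, whose counts ranged from 23 to 33.

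The median of −0.53 was negative throughout. It was −0.65 under library size scaling, −0.57 under upper quartile scaling, −0.60 with no filter beyond 1 count, −0.49 with GC and length offsets, −0.66 without the members of shared sequence, −0.65 without members whose exons overlap another gene, and −0.62 to −0.47 when 1 sample was left out. The cause of these shifts was not tested beyond the change in members counted.

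Over all alternatives the medians by type ran from −0.85 to −0.52 for H1, −0.56 to −0.42 for H2A, −0.66 to −0.32 for H2B, −1.27 to −0.39 for H3 and −0.95 to −0.71 for H4.

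Same-numbered samples showed no sign of pairing in their deviations from the group means (correlations of −0.025, 0.0038 and 0.013). With 3 samples per group this cannot exclude pairing, and the sources used here do not state it. With the replicate block 24 members were lower and with the replicate block plus GC and length offsets 21, where the median was −0.49.

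Over all genes, the counts lower and higher were 4884 and 1819 under library size scaling, 1671 and 1946 at an adjusted p under 0.01, 1165 and 895 with a change of at least 1.5-fold, and 2048 to 3065 and 1988 to 3149 when 1 sample was left out.

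Hist2h2aa1, at 0.05, turned to −0.074 under library size scaling, −0.0042 under upper quartile scaling, −0.18 with the replicate block, −0.089 with that block and offsets, and ran from −2.80 to 2.21 when 1 sample was left out, with −0.33 and −0.54 without normal replicates 2 and 3 and −2.80 without high glucose replicate 2. Hist2h3c1, at −0.20, ran from −1.18 to 0.18, positive without high glucose replicates 1 (0.03) and 3, and Hist1h1b, at 0.16, ran from −0.48 without high glucose replicate 3 to 0.38. Of 549 fits of 28 named members, 489 kept their side of the threshold and direction, 39 lost the call, 11 gained it and 10 reversed. With 3 samples per group and a median of 75.6 counts per tested member, falls in low members had wide errors.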
